A study of Mus musculus with 20 samples.

Results

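The 10 genes described here are Hspa5, Hsp90b1, Calr, Pdia4, Pdia6, Dnajb9, Herpud1, Sdf2l1, Xbp1 and Creld2. They encode chaperones and folding enzymes of the endoplasmic reticulum (ER), a component of its degradation machinery, and the transcription factor Xbp1, which drives many such genes. Each was represented by the brightest array probe set that carries its symbol alone. They are 10 of 18193 genes named on the array. All 10 exceeded the detection floor of 16 intensity units on at least 5 of 20 arrays and so were among the 8774 genes tested. Liver RNA was measured in 4 groups of 5 mice, with 1 array per mouse. They were mcad-/- mice injected with lipopolysaccharide (LPS, the endotoxin of Gram-negative bacteria, used to set off inflammation), mcad-/- mice injected with vehicle, wild type mice injected with LPS, and wild type mice injected with vehicle. MCAD stands for medium-chain acyl-CoA dehydrogenase, a mitochondrial enzyme of fatty acid oxidation whose gene is Acadm. Every mouse was a male of 50 to 60 days on a mixed BL6/SV129 background, and every one, controls included, was fasted for 12 h after the injection. The LPS dose was 100 µg per 20 g body weight. The study's title places the question in hepatic carbohydrate handling when metabolic demand is high, and the design asks how LPS changes the fasted liver in each genotype and how the genotypes differ under each injection. Whether littermates were compared is not stated in these sources, so that strain segments which differ between them on the mixed background cannot be told apart from the loss of MCAD.

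The ER folds and glycosylates proteins bound for secretion, and the liver secretes much of the plasma's protein. When unfolded proteins accumulate, 3 sensors in the ER membrane, Ire1 (gene Ern1), Perk (Eif2ak3) and Atf6, start the unfolded protein response. Ire1 splices Xbp1 mRNA into the form that encodes the active factor, while a cleaved fragment of Atf6 enters the nucleus, and both factors raise chaperone genes. Perk slows translation and raises Atf4 and its target Ddit3. The Xbp1 probe set read total Xbp1 mRNA, so that splicing was not resolved.

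The targeted gene, Acadm, read 14.3 to 218 units in MCAD-/- livers with LPS, against 1449.9 to 2375 in wild type livers with LPS. It read 9.03 to 80.2 units in MCAD-/- livers with vehicle, against 3106 to 4022 in wild type livers with vehicle. The log2 differences were -5.45 and -6.60, each with p = 0.00794 in a two-sided exact permutation test, the smallest that 252 regroupings allow. The 7 hepatocyte markers measured summed to between 70328 and 91073 units on every array. The share of probe sets above the floor ran from 30.2% to 32.3% per array, and no 2 arrays were identical. Wild type LPS mouse 4 and wild type vehicle mouse 3 had the highest log2 ratios of the actin control's 3' to 5' probes, a sign of RNA quality, at 3.69 and 3.18, while the median over arrays was 1.79. Without both arrays, the number of the 10 genes past the threshold was the same in each comparison below. In whole liver, fewer cells of a type and less RNA per cell cannot be told apart.

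The sequences upstream of 6 of the genes are shown because they hold the DNA elements through which stressed ER is known to act on chaperone genes. The ER stress element (ERSE) is CCAAT followed, after 9 bases of any kind, by CCACG. NF-Y binds its first half-site and Atf6 or Xbp1 its second. ERSE-II, a shorter relative, is ATTGG and CCACG with 1 base between them, and TGACGTG is the core of the unfolded protein response element. All 3 were searched on both strands in the 250 bases before each annotated start, in RefSeq windows of assembly GRCm38.p6, and no match overlapped another. The windows of all 10 genes were found. Each is printed 5' to 3' on the strand of its gene, with the matches in capitals:
Hspa5, chr2:34771840-34772089, plus strand: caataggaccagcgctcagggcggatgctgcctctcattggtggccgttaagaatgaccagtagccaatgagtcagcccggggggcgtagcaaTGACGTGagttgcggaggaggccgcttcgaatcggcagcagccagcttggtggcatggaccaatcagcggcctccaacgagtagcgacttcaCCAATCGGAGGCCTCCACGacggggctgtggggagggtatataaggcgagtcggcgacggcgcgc
Hsp90b1, chr10:86705445-86705694, minus strand: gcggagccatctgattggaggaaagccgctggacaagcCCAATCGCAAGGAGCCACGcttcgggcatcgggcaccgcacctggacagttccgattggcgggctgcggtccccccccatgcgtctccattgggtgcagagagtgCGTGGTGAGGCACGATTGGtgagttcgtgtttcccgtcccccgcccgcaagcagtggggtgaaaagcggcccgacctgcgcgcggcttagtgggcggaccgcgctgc
Calr, chr8:84846932-84847181, minus strand: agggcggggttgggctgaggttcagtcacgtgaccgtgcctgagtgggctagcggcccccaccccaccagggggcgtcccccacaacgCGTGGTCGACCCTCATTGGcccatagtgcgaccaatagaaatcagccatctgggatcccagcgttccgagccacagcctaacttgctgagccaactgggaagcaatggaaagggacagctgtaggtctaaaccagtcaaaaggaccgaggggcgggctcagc
Pdia6, chr12:17266339-17266588, plus strand: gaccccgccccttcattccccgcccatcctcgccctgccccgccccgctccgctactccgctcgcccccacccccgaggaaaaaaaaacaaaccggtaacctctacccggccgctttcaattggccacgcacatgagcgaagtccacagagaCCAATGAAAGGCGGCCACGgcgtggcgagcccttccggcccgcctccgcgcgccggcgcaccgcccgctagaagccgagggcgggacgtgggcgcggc
Creld2, chr15:88819396-88819645, plus strand: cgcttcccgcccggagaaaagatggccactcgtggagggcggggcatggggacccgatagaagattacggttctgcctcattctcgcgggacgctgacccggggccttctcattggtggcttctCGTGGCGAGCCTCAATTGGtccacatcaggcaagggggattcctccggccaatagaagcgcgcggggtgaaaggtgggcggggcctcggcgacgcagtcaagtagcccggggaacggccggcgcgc
Herpud1, chr8:94386179-94386428, plus strand: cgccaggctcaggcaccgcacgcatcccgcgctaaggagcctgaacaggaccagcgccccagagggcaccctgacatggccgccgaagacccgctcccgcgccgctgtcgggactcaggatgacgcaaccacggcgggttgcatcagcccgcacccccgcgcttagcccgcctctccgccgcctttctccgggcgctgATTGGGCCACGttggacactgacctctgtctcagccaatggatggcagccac

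An ERSE lay in the windows of 5 of the 10 genes and in 0.113% of 32851 windows of the same length (37 windows). The 10 were picked as ER chaperones and Xbp1 targets, the kind of gene on which these elements are known to act. The higher share among them follows from that choice and is a description. In Hspa5 it began 65 and ended 47 bases before the start, and in Pdia6 it spanned bases 98 to 80. Hsp90b1 held an ERSE at 2 places, at 212 to 194 and, on the opposite strand, at 107 to 89 bases before the start. The single matches of Calr at 162 to 144 and of Creld2 at 126 to 108 lay on the opposite strand as well. Herpud1 alone of the 10 held ERSE-II, at 52 to 42 bases before its start, a motif found in 0.0304% of windows (10 windows). The core of the unfolded protein response element lay in 1.65% of windows and, among the 10, in Hspa5 at 157 to 151. Pdia4, Dnajb9, Sdf2l1 and Xbp1 held none of these letters in the window, which says nothing of elements elsewhere.

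**Figure D1:**
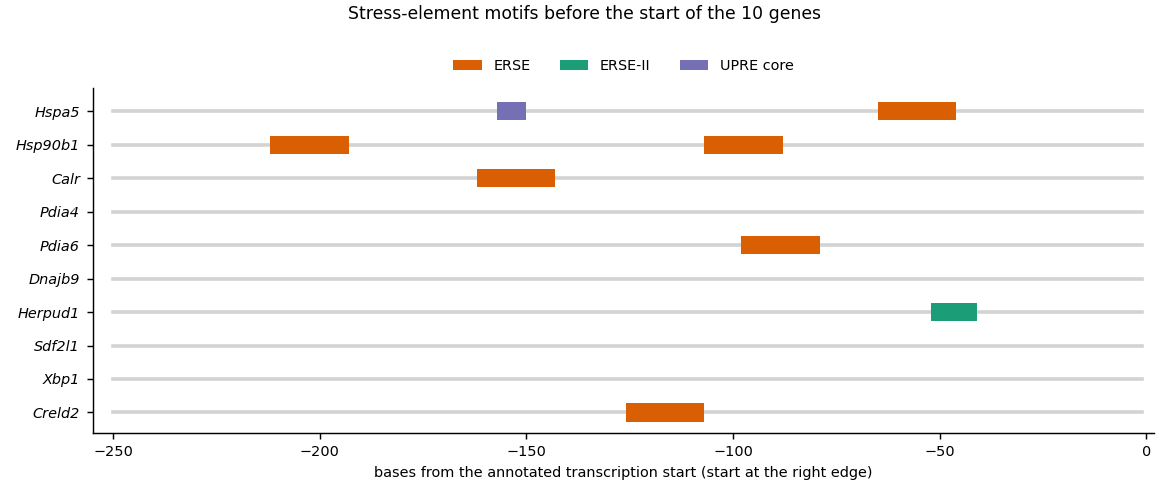
Positions of the 3 motifs in the 250 bases before the annotated start of each of the 10 genes, with the distance from the start in bases on the horizontal axis. Orange marks ERSE, found in 5 genes and at 2 places in Hsp90b1, green marks ERSE-II in Herpud1, and purple marks the unfolded protein response core in Hspa5.

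LPS raised most of these genes in both genotypes, by 1.39-fold to 2.34-fold apart from Sdf2l1, and lowered Herpud1 by 2.16-fold in MCAD-/- and 1.93-fold in wild type. Sdf2l1, fitted at 3.44-fold in MCAD-/- and 2.93-fold in wild type, had vehicle mice near or under the floor, which limits its size. In MCAD-/- livers 8 of the 10 were past the threshold of an adjusted p of 0.05 as higher with LPS and 1 as lower. Among all tested genes, 38.1% were higher and 27.6% lower in that comparison. In wild type livers 7 were higher and 1 lower, where 40.0% of all tested genes were higher and 24.0% lower. The median log2 difference of the 10 genes was 0.71 in MCAD-/- and 0.58 in wild type, while that of all tested genes was 0.14 and 0.18. The LPS and vehicle mice did not overlap for 8 of the 10 genes in MCAD-/- and for 7 in wild type, where 51.4% and 46.1% of all tested genes had groups that did not overlap.

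**Figure D2:**
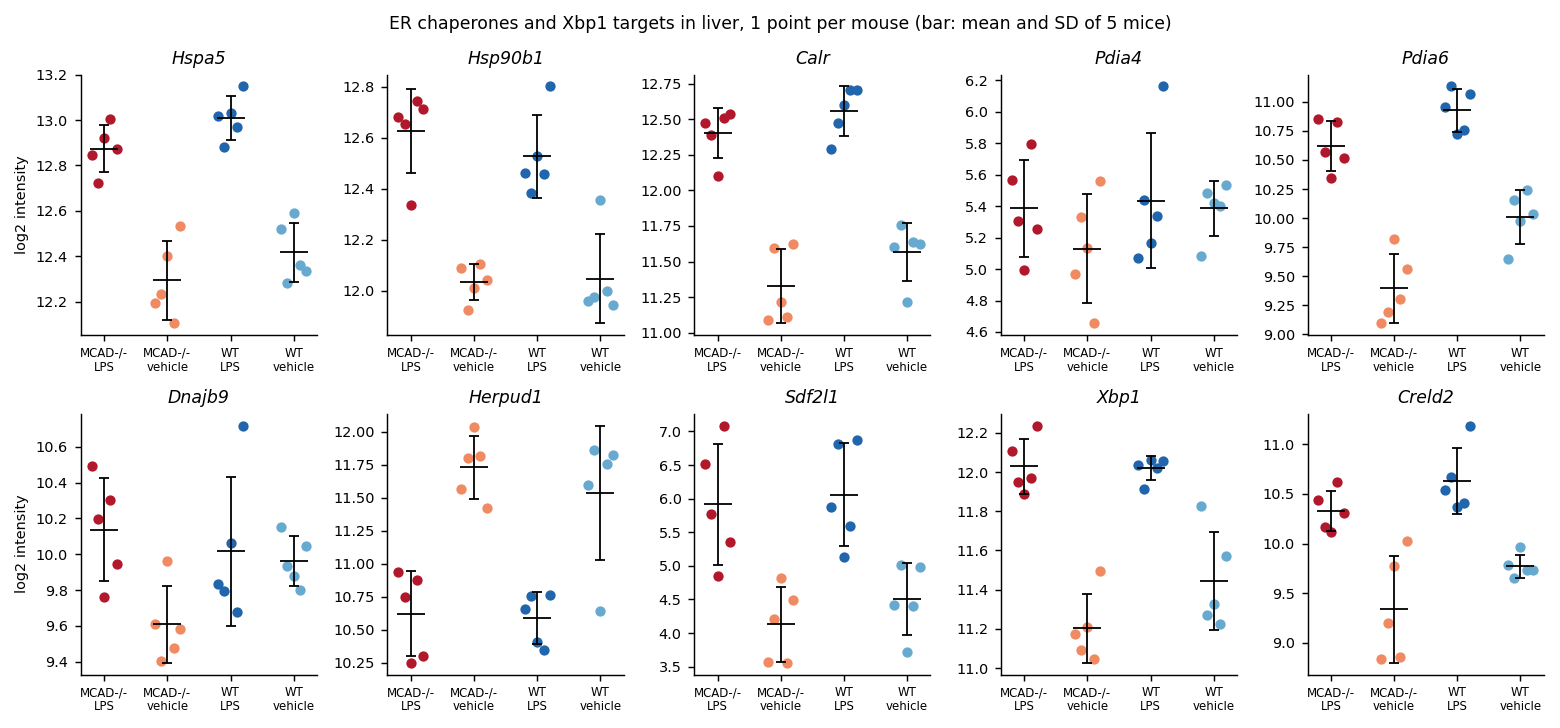
Log2 intensity of each of the 10 genes (vertical axis, its own range per panel) in every mouse by group, with MCAD-/- LPS, MCAD-/- vehicle, wild type LPS and wild type vehicle from left to right. Points are mice, and bars give the mean and SD of 5 mice. Both LPS groups lie above both vehicle groups for Hspa5, Calr, Pdia6, Xbp1 and Creld2, and Herpud1 runs the other way except for wild type vehicle mouse 3.

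Hspa5 encodes BiP, the ER's Hsp70 chaperone, which also holds the 3 sensors inactive. It read 7371, 6754, 7760.4, 8221 and 7501 units in MCAD-/- livers with LPS, against 4683, 4815, 5408, 4401 and 5936 with vehicle. In wild type livers it read 8294, 7544, 8363, 8024 and 9079.6 units with LPS, against 5865, 4977, 6163, 5257 and 5171 with vehicle. Every LPS mouse was above every vehicle mouse of either genotype. The rise was 1.5-fold in MCAD-/- (log2 difference 0.58 ± 0.10, SE, adjusted p = 3.10e-05) and 1.51-fold in wild type (0.59 ± 0.10, adjusted p = 2.59e-05). Of its 3 probe sets, a dim one gave a log2 difference of 0.15 in MCAD-/- (adjusted p = 0.457), which ended the call there.

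Hsp90b1 encodes Grp94, the ER's Hsp90 chaperone. Its values were 6561, 6437, 5177, 6859.8 and 6712 units in MCAD-/- livers with LPS, against 4355, 3890.3, 4134, 4402 and 4223 with vehicle. Wild type livers had 5645, 5348, 5904, 5631 and 7135 units with LPS, against 3988, 4026, 5246, 4092 and 3941 with vehicle. The groups did not overlap within either genotype, although MCAD-/- LPS mouse 3 and wild type vehicle mouse 3 each stood apart from their group and towards the other. Hsp90b1 rose 1.51-fold in MCAD-/- (log2 difference 0.59 ± 0.11, SE, adjusted p = 6.46e-05) and 1.39-fold in wild type (0.48 ± 0.11, adjusted p = 5.45e-04). Its second probe set gave log2 differences of 0.78 and 0.35 with adjusted p of 0.115 and 0.481, so that neither call held on it.

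Calr encodes calreticulin, a lectin chaperone of the ER lumen that binds calcium and newly glycosylated proteins. Calr read 5698, 5352, 4401, 5817 and 5928 units in MCAD-/- livers with LPS, against 2184, 3091, 2379, 2209 and 3159 with vehicle. Its wild type values were 5006, 5689.9, 6198, 6665 and 6686 units with LPS, against 3114, 3451, 2383, 3178 and 3152 with vehicle. All 10 LPS mice were above all 10 vehicle mice. The fold was 2.10 in MCAD-/- (log2 difference 1.07 ± 0.13, SE, adjusted p = 8.42e-07) and 1.98 in wild type (0.99 ± 0.13, adjusted p = 2.60e-06).

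The 2 protein disulfide isomerases of the set, enzymes that form and reshuffle disulfide bonds, differed in their result. Pdia6 had 1845, 1515, 1297, 1819.7 and 1462 units in MCAD-/- livers with LPS, against 547, 585, 906, 634 and 756 with vehicle. With LPS its wild type values were 1987, 2246, 1689.7, 1728 and 2145 units, against 800.4, 1141, 1009, 1213 and 1047 with vehicle. Again the 10 LPS mice lay above the 10 vehicle mice. Pdia6 rose 2.34-fold in MCAD-/- (log2 difference 1.22 ± 0.15, SE, adjusted p = 5.74e-07) and 1.89-fold in wild type (0.92 ± 0.15, adjusted p = 2.19e-05). Averaging it with its second probe set, which lay below the floor, reduced the log2 differences to 0.54 and 0.38, both still past the threshold.

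Pdia4 was dim, between 25.2 and 71.6 units on all 20 arrays. Its values were 47.5, 39.6, 31.9, 55.6 and 38.2 units in MCAD-/- livers with LPS, against 31.3, 40.2, 35.1, 25.2 and 47.2 with vehicle. Wild type livers read 33.7, 43.5, 35.8, 40.4 and 71.6 units with LPS, against 34.0, 44.8, 42.7, 42.3 and 46.4 with vehicle. The groups overlapped throughout. The log2 difference was 0.26 in MCAD-/- (95% interval -0.15 to 0.67) and 0.05 in wild type (-0.36 to 0.46), and neither passed the threshold. The MCAD-/- interval includes the log2 rise of 0.58 given above for Hspa5, and the wild type interval ends below the 0.59 of Hspa5. Both intervals bound the reading of 1 dim probe set, the second Pdia4 probe set being too dim to test. They do not exclude a rise in Pdia4 mRNA of that size.

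Herpud1 was the only one of the 10 genes that fell with LPS. It encodes a membrane protein of the ER that helps to assemble the complex which passes misfolded proteins to the cytosol for degradation. Herpud1 read 1959.6, 1717, 1217, 1880.1 and 1261 units in MCAD-/- livers with LPS, against 3040.1, 3573, 4203, 3610.4 and 2744 with vehicle. In wild type livers the values were 1613, 1729.9, 1353, 1304 and 1739 units with LPS, against 3097, 3726, 1600.0, 3462 and 3627 with vehicle. The MCAD-/- groups did not overlap. In wild type, vehicle mouse 3 lay inside the LPS range while the other 4 vehicle mice lay far above it. The level was 2.16-fold lower with LPS in MCAD-/- (log2 difference -1.11 ± 0.20, SE, adjusted p = 8.35e-05) and 1.93-fold lower in wild type (-0.95 ± 0.20, adjusted p = 4.08e-04). The second Herpud1 probe set gave -1.19 in MCAD-/- and -1.05 in wild type. Without both arrays of high actin ratio, wild type vehicle mouse 3 among them, the wild type log2 difference was -1.12 (adjusted p = 1.37e-05).

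Xbp1 itself had 4407, 3948, 3793, 4007 and 4826 units in MCAD-/- livers with LPS, against 2313, 2183, 2369, 2113 and 2889 with vehicle. For wild type the values were 4202, 3861, 4282, 4162 and 4261 units with LPS, against 3630.2, 2475, 2572, 2393 and 3043 with vehicle. All LPS mice were above all vehicle mice, and the wild type LPS mice lay within 0.15 of each other on the log2 scale. Total Xbp1 mRNA rose 1.77-fold in MCAD-/- (log2 difference 0.83 ± 0.12, SE, adjusted p = 3.99e-06) and 1.49-fold in wild type (0.57 ± 0.12, adjusted p = 2.45e-04). Of its 4 probe sets, 1 missed the threshold in wild type (0.42, adjusted p = 0.0854).

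Creld2, which encodes a secreted and ER-resident protein with disulfide isomerase activity, read 1386, 1149.9, 1107, 1570.0 and 1269.5 units in MCAD-/- livers with LPS, against 458, 585, 878, 463 and 1040.3 with vehicle. With LPS, wild type livers had 1486, 1632, 1319.9, 1357 and 2335 units, against 879, 806, 996, 848 and 851 with vehicle. No LPS mouse overlapped a vehicle mouse, and MCAD-/- vehicle mice 3 and 5 were well above the other 3 of their group. The fold was 1.99 in MCAD-/- (log2 difference 0.99 ± 0.20, SE, adjusted p = 2.55e-04) and 1.82 in wild type (0.86 ± 0.20, adjusted p = 9.65e-04).

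Sdf2l1 encodes a small luminal protein that works with ER Hsp40 chaperones. It was dim as well, with 91.2, 54.7, 28.8, 136 and 40.8 units in MCAD-/- livers with LPS, against 11.8, 18.6, 28.1, 11.8 and 22.6 with vehicle. Wild type livers had 58.9, 112, 34.9, 48.3 and 117 units with LPS, against 21.4, 32.4, 13.2, 21.1 and 31.8 with vehicle. Within each genotype the groups did not overlap. The fitted rise was 3.44-fold in MCAD-/- (log2 difference 1.78 ± 0.41, SE, adjusted p = 7.15e-04) and 2.93-fold in wild type (1.55 ± 0.41, adjusted p = 0.00245). Of the vehicle mice, 2 MCAD-/- and 1 wild type lay under the 16-unit floor.

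Dnajb9, also called ERdj4, is an Hsp40 cochaperone of BiP and a known Xbp1 target. It read 1439, 1173, 866, 1261 and 985 units in MCAD-/- livers with LPS, against 783, 678, 997, 713 and 768 with vehicle. The wild type values were 912, 887, 1067, 819 and 1684 units with LPS, against 1136, 976, 941, 891 and 1059 with vehicle. MCAD-/- vehicle mouse 3 lay above LPS mice 3 and 5, so that these groups overlapped, and in wild type only LPS mouse 5 was above the vehicle range. The rise of 1.44-fold passed in MCAD-/- (log2 difference 0.53 ± 0.17, SE, adjusted p = 0.0114). The wild type difference of 0.05 (95% interval -0.31 to 0.42, adjusted p = 0.795) did not. The responses themselves differed by 0.47 ± 0.24 (SE), which did not pass the test of the difference (adjusted p = 0.292).

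**Figure D3:**
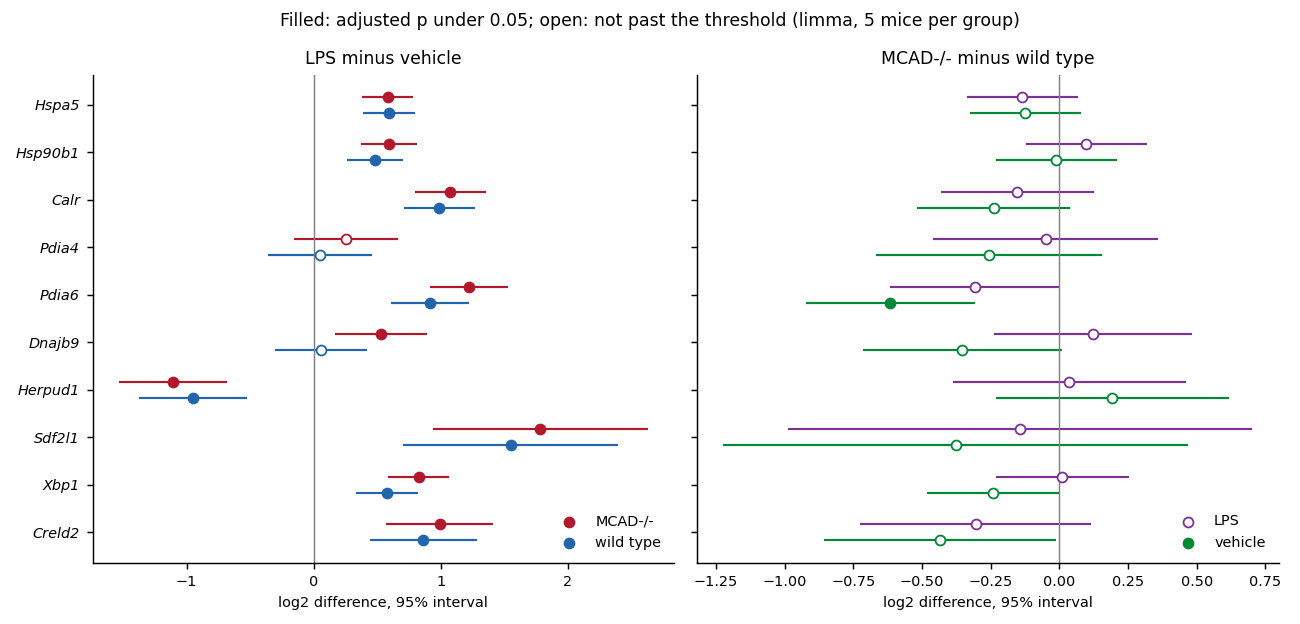
Log2 differences of the 10 genes with their 95% intervals (horizontal axis). The left panel gives LPS minus vehicle in MCAD-/- (red) and wild type (blue), and the right panel MCAD-/- minus wild type with LPS (purple) and with vehicle (green). Filled points passed the threshold: 9 genes in MCAD-/- and 8 in wild type on the left, and Pdia6 with vehicle on the right.

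Set against the upstream sequences, the 5 genes with an ERSE, Hspa5, Hsp90b1, Calr, Pdia6 and Creld2, were all higher with LPS in both genotypes. Of the 4 with none of the 3 motifs, Xbp1 and Sdf2l1 were also higher in both, Dnajb9 in MCAD-/- alone and Pdia4 in neither. Herpud1, which held ERSE-II, was lower in both. Among all tested genes, 38.1% were higher and 27.6% lower with LPS in MCAD-/-. In wild type 40.0% were higher and 24.0% lower. Outside the 10, 30 genes held an ERSE in their window and 9 of these were tested. Among those 9, 4 were higher and 3 lower with LPS in MCAD-/- livers, with a median log2 difference of 0.135, beside 0.135 over all tested genes. In wild type livers 3 were higher and 3 lower, with a median of 0.12, beside 0.18. Acnat2, Syvn1 and Alg12 were higher with LPS in each genotype, and Ero1b, Acacb and Adcy3 were lower in each. Canx passed as higher in MCAD-/- alone. The largest log2 difference was that of Acnat2, at 3.94 in MCAD-/- and 2.39 in wild type. These genes were named after their values were seen, and the count is a description.

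Between genotypes, 1 of the 10 genes passed the threshold, Pdia6 with vehicle. With LPS, 0 of the 10 passed in limma's test, where 20.6% of all tested genes did, and 0 reached an unadjusted p under 0.05. The log2 difference between MCAD-/- and wild type closest to the threshold was that of Pdia6, at -0.31 (95% interval -0.62 to 0.0011, adjusted p = 0.152). The median over the 10 was -0.09 with LPS, beside -0.03 over all tested genes, and 0 of the 10 had groups that did not overlap, where 12.8% of all tested genes had.

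With vehicle, Pdia6 was 1.53-fold lower in MCAD-/- than in wild type (log2 difference -0.62 ± 0.15, SE, adjusted p = 0.00671), as the values above show. The vehicle groups overlapped for all 10 genes, where 13.8% of all tested genes had groups that did not. For Pdia6, MCAD-/- mouse 3 at 906 units lay above wild type mouse 1 at 800.4 units. This 1 gene of 10 stood beside 16.2% of all tested genes past the threshold in either direction and 6.39% lower. Creld2 differed by -0.43 (95% interval -0.86 to -0.012, unadjusted p = 0.0444, adjusted p = 0.160), Dnajb9 by -0.35 (-0.71 to 0.0081) and Xbp1 by -0.24 (-0.48 to 0.0015). The interval for Calr was -0.52 to 0.04, for Hspa5 -0.33 to 0.08 and for Hsp90b1 -0.23 to 0.21. The mean was lower in MCAD-/- than in wild type for 9 of the 10, with Hsp90b1 at -0.012. Herpud1 was the other, at 0.19 (-0.23 to 0.62). This is a count of signs only, and genes on the same arrays are not independent. Without wild type vehicle mouse 3, Hsp90b1 gave 0.065 and Herpud1 -0.031. The median over the 10 was -0.25 beside 0.04 over all tested genes. Array weights, estimated from the spread of these same values around their group means, raised the number of the 10 past the threshold to 6. All 6 were lower in MCAD-/-, namely Calr, Pdia4, Pdia6, Dnajb9, Xbp1 and Creld2. Under that weighting 32.5% of all tested genes passed and 13.2% were lower. In the MCAD-/- vehicle group the lowest weights, 0.62 and 0.79, went to mice 5 and 3. Mouse 5 was the highest of that group for 5 of the 10 genes and mouse 3 for 4. Without both arrays of high actin ratio the number past the threshold was 1, Pdia6. Leaving out MCAD-/- vehicle mouse 5 made it 2, Pdia6 and Creld2. Another Xbp1 probe set passed at -0.38 (adjusted p = 0.0492).

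Markers of other liver cells moved between the same vehicle groups. Of 9 tested markers of sinusoidal endothelial cells, 8 were higher in MCAD-/- with vehicle, and the 10 on the array summed to between 1668 and 2402 units, against 511 to 1141 in wild type with vehicle. Of 10 tested markers of Kupffer cells and macrophages, 7 were higher there, and the 11 on the array summed to 1898 to 2725 units, against 1067 to 1903. Hepatocyte markers summed to 86400.2 to 91073 units in MCAD-/- and 84657 to 88858 in wild type, with 0 of 7 past the threshold. Of 7 stellate cell markers 4 were higher in MCAD-/- with vehicle, with sums over 9 of 1963 to 2263 units, against 1079 to 1887 in wild type. Their part in the Pdia6 difference was not tested.

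The LPS responses of the 2 genotypes were then set against each other in the same model. The difference of responses passed for 0 of the 10 genes in limma's test (0 at an unadjusted p under 0.05), where 4.11% of all tested genes passed. It was above 0, a larger log2 response in MCAD-/- than in wild type, for 8 of the 10. This is a count of signs only. The median difference of responses was 0.17 over the 10, beside -0.07 over all tested genes. The largest were 0.47 for Dnajb9, 0.31 ± 0.21 (SE) for Pdia6 and 0.25 ± 0.16 for Xbp1. The LPS comparison in wild type and the genotype comparison with vehicle share the wild type vehicle mice, and the other comparisons share groups likewise.

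The mice within a group differed in several of these genes at once. MCAD-/- LPS mouse 3 had the lowest value of its group for 9 of the 10 genes, and Hspa5, Calr, Pdia6, Xbp1 and Creld2 in it were still above every vehicle mouse of either genotype. Wild type LPS mouse 5 was the highest of its group for 8 of the 10. MCAD-/- vehicle mouse 5 was highest for 5 and mouse 3 for 4. These counts describe arrays that share their genes' normalization, and genes on 1 array are not independent.

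The tested genes outside the 10 whose centred log2 values over the 20 arrays lay closest to the mean profile of the 10 were Sec61b, Slc35b1, Tmed3, Pdia3 and Sec61a1. Their root mean square log2 differences from that profile were 0.14, 0.16, 0.16, 0.17 and 0.18, while the median over all tested genes was 0.50. Sec61b and Sec61a1 encode subunits of the translocon through which nascent proteins enter the ER, Pdia3 a disulfide isomerase for glycoproteins, Tmed3 a cargo receptor of the p24 family, and Slc35b1 a nucleotide transporter. Among the 10 themselves, Hspa5 lay closest to the mean profile (0.18) and Herpud1 farthest (0.86).

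These 5 were chosen for values that follow a profile which is itself higher with LPS, so their LPS differences are a description and no test is given here. The log2 difference between LPS and vehicle was 0.60 in MCAD-/- and 0.52 in wild type for Sec61b, 0.64 and 0.52 for Tmed3, and 0.50 and 0.33 for Slc35b1. With the probe sets of Tmed3 averaged, its values were 0.30 and 0.28.

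Other genes of the ER pathways were taken from 7 lists. In each comparison at most 3 genes per list are named, those with the smallest adjusted p past the threshold. A gene given here for 1 genotype or 1 injection alone may therefore have moved alike in the other. The LPS counts of every list stand beside the shares of all tested genes. These were 38.1% higher and 27.6% lower in MCAD-/-, and 40.0% higher and 24.0% lower in wild type. Of 15 other ER chaperones and cofactors tested, 6 were higher and 3 lower with LPS in MCAD-/-, and 5 were higher and 0 lower in wild type, shares of higher genes close to or below those of all tested genes. Dnajb11, an Hsp40 cochaperone of BiP, rose by 0.97 on the log2 scale in MCAD-/- and 0.84 in wild type. Manf, a secreted ER stress protein, rose by 1.21 and 0.74 in the same order, and Dnajc10, a disulfide reductase, by 0.76 in wild type. Fkbp2 fell by 0.39 in MCAD-/-. Hyou1, an Hsp70-like exchange factor for BiP, was lower in MCAD-/- than in wild type, 1.09 below it on the log2 scale with LPS (adjusted p = 8.31e-05) and 0.75 below it with vehicle (adjusted p = 0.00360). Manf was lower in MCAD-/- with vehicle, at -0.56 (adjusted p = 0.0118), and Cnpy2 with LPS, at -0.30 (adjusted p = 0.0388). With probe sets averaged, the vehicle difference of Hyou1 was -1.14 and that of Cnpy2 with LPS lost its call, at -0.10.

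Of 12 other disulfide isomerases and oxidation enzymes, 4 were higher and 3 lower with LPS in MCAD-/-, and 4 higher and 2 lower in wild type. Pdia3 rose by 0.92 on the log2 scale in MCAD-/- and 0.61 in wild type, and Txndc12, a thioredoxin-like protein, rose by 0.62 in wild type. Prdx4, the ER peroxiredoxin, fell by 0.78 in MCAD-/- and by 0.70 in wild type. Ero1b, an oxidase that recharges disulfide isomerases, fell by 0.99 in MCAD-/- and by 0.70 in wild type. With LPS its relative Ero1a was higher in MCAD-/- than in wild type, at 0.74 (adjusted p = 0.00711), and Txndc12 was lower, at -0.58 (adjusted p = 0.00336). The Ero1a call was lost with array weights (0.41, adjusted p = 0.0740) and when the compared groups were fitted alone (adjusted p = 0.0519). Averaging probe sets gave 0.46 for Pdia3 in MCAD-/-, and for Prdx4 -0.40 in MCAD-/- and -0.44 in wild type.

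The ER-associated degradation list, to which Herpud1's function belongs, held 16 tested genes, of which 7 were higher and 4 lower with LPS in MCAD-/- and 8 higher and 2 lower in wild type. Syvn1, the ubiquitin ligase Hrd1 of the complex that Herpud1 joins, rose by 1.02 on the log2 scale in MCAD-/- and 1.17 in wild type, the opposite direction to Herpud1. Ube2g2, a ubiquitin-conjugating enzyme of this pathway, rose by 0.71 in MCAD-/- and 0.97 in wild type. Edem1, a lectin that selects misfolded glycoproteins, rose by 0.63 in MCAD-/-, and Vcp, the ATPase that extracts substrates from the membrane, by 0.48 in wild type. Between genotypes, Os9 was higher in MCAD-/- by 0.40 with LPS and 0.49 with vehicle, Edem1 by 0.44 with LPS and Ube2j2 by 0.40 with vehicle. Both Os9 calls were lost when its probe sets were averaged, and averaging gave 0.29 for the LPS rise of Edem1 and 0.84 for Ube2j2. The genotype call of Edem1 was lost with the compared groups fitted alone (adjusted p = 0.0694).

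**Figure D4:**
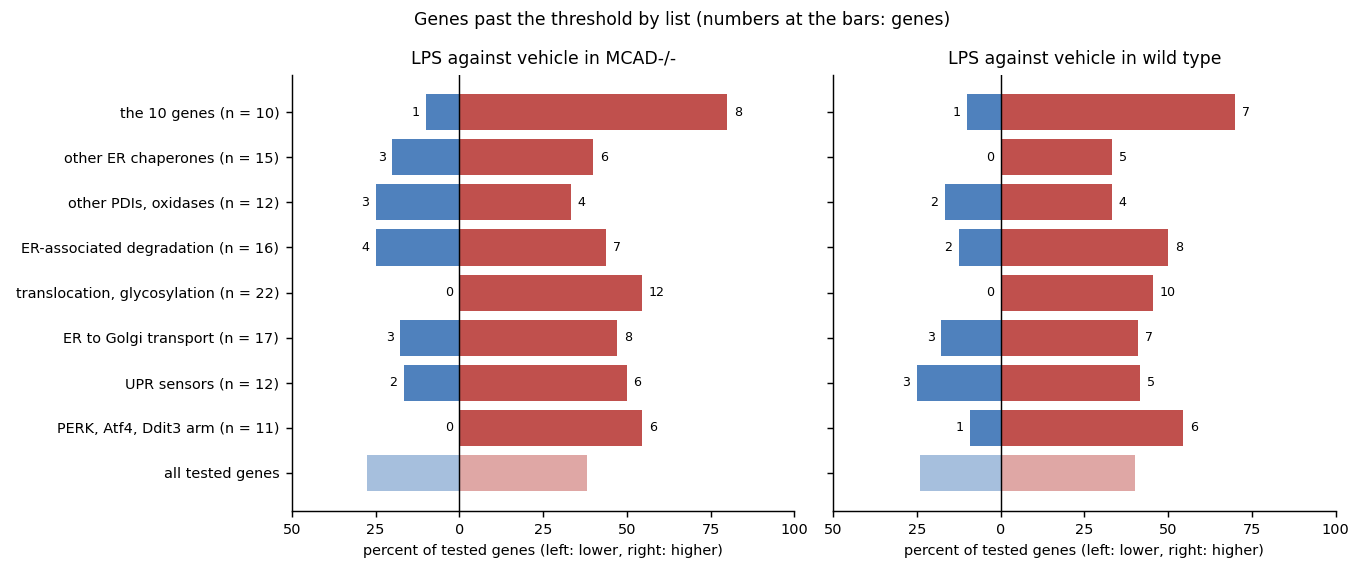
Percent of tested genes past the threshold as higher (red, to the right) or lower (blue, to the left) with LPS, in MCAD-/- (left panel) and wild type (right panel). Numbers at the bars are genes, and the pale bars at the bottom are all tested genes. The 10 genes have 8 and 7 higher, and the translocation and glycosylation list has 12 and 10 higher of 22 with none lower.

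Translocation and glycosylation genes had 22 tested members, of which 12 were higher and 0 lower with LPS in MCAD-/- and 10 higher and 0 lower in wild type. Among all tested genes, 38.1% were higher in MCAD-/- and 40.0% in wild type. The list's median log2 differences were 0.37 in MCAD-/- and 0.29 in wild type, beside 0.14 and 0.18 over all tested genes. Rpn1, a subunit of the oligosaccharyltransferase, rose by 1.14 in MCAD-/- and 1.08 in wild type, and Sec61a1 by 0.60 and 0.64 in the same order. Ssr3, a translocon-associated protein, rose by 0.87 in MCAD-/-, and Srpr, a subunit of the signal recognition particle's receptor, by 0.48 in wild type. With vehicle, Spcs3 and Tram1 were lower in MCAD-/- than in wild type, at -0.46 and -0.40, and with LPS Sec11a was, at -0.29. Averaging probe sets ended the calls of Sec61a1 in wild type (0.45, adjusted p = 0.0761) and Tram1 (-0.29, adjusted p = 0.0566) and gave 0.21 for Srpr.

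Of 17 genes of transport from the ER to the Golgi, 8 were higher and 3 lower with LPS in MCAD-/-, and 7 higher and 3 lower in wild type. The cargo receptor Lman1 was among those named in wild type, where it fell by 1.16 on the log2 scale. Mcfd2, its partner in carrying coagulation factors, was among those named in MCAD-/-, where it rose by 0.84. The coat GTPase Sar1b fell by 1.31 in MCAD-/- and by 1.08 in wild type, and the coat subunit Sec24a fell by 0.84 in wild type. Arfgap3, a GTPase-activating protein of the Golgi, rose by 1.16 in MCAD-/-. In either genotype comparison, and for the difference between the responses, 0 of the 17 passed in limma's test.

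Among 12 sensors and regulators of the unfolded protein response, 6 were higher and 2 lower with LPS in MCAD-/-, and 5 higher and 3 lower in wild type. The sensor gene Atf6 fell by 1.13 on the log2 scale in MCAD-/- and by 1.11 in wild type, and averaging its probe sets gave -0.37 and -0.41, still past the threshold. Traf2, an adaptor that binds Ire1, rose by 1.10 in MCAD-/- and 1.23 in wild type. Its mean log2 levels with vehicle, 4.31 and 4.08 in that order, lay close to the floor, which limits these sizes. Bak1, better known for its role in apoptosis, passed as higher in both, with mean log2 levels with LPS of 4.88 in MCAD-/- and 4.79 in wild type, while both vehicle means lay under the floor (log2 of 4), so no size is given. Ern1 was lower in MCAD-/- with vehicle, at -0.42 (adjusted p = 0.0469). That call was lost with no filter (adjusted p = 0.0618), median centring (0.0590), quantile normalization (0.0537) and the compared groups fitted alone (0.0551). With LPS, Creb3l3, a liver relative of Atf6, was lower in MCAD-/-, at -0.59 (adjusted p = 0.00287), and Eif2ak3 was higher, at 0.54 (adjusted p = 0.0390). The Eif2ak3 call was lost without both arrays of high actin ratio (0.41, adjusted p = 0.107). It was lost too with the compared groups fitted alone (adjusted p = 0.101) and with no filter (0.0557).

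In the arm of Perk, Atf4 and Ddit3, 6 of 11 tested genes were higher and 0 lower with LPS in MCAD-/-, and 6 were higher and 1 lower in wild type. Ddit3 (Chop) rose by 3.26 on the log2 scale in MCAD-/- and 3.50 in wild type, and by 1.73 and 1.76 with its probe sets averaged. Asns rose by 4.08 in wild type. Nupr1 passed as higher there, with a mean log2 level of 6.53 with LPS and a vehicle mean under the floor. Atf4 and Ddit4 rose by 1.15 and 1.53 in MCAD-/-, Atf4 by 0.69 with probe sets averaged. Ppp1r15a (Gadd34), which reverses the translation block, was higher in MCAD-/- by 0.98 with LPS and 0.91 with vehicle. Its mean log2 level in wild type with vehicle, 4.36, lay close to the floor, which limits the size of the vehicle difference. With LPS, Chac1 was lower in MCAD-/-, at -1.23, and Ddit3 was too, at -0.57, while Asns was higher in MCAD-/- with vehicle, at 1.74. The genotype calls of Cnpy2, Sec11a, Tram1, Ern1, Eif2ak3, Ddit3 and Chac1 were each lost when 1 or another mouse was left out, that of Chac1 only without MCAD-/- LPS mouse 5. With the compared groups fitted alone, the Asns (adjusted p = 0.0603) and Chac1 (adjusted p = 0.0523) genotype calls were lost. Averaging probe sets ended that of Ddit3 (-0.25, adjusted p = 0.173). In limma's test of the difference between responses, 0 genes of the 7 lists passed, where 4.11% of all tested genes did. Of their 105 tested genes, 11 had an unadjusted p under 0.05, as did 19.9% of all tested genes.

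Markers of other cell types moved with LPS. All 4 tested neutrophil markers were higher with LPS in both genotypes, and the 8 on the array summed to 2749 to 3277 units in MCAD-/- with LPS, against 39.2 to 214 with vehicle. In wild type they summed to 1873 to 3971 units with LPS, against 42.6 to 115 with vehicle. Kupffer cell and macrophage markers went the other way in MCAD-/-, where 9 of 10 tested were lower with LPS and 1 (Marco) higher, with sums of 748 to 1495 units against 1898 to 2725. In wild type 6 were lower and 1 higher, with sums of 626 to 1382 units with LPS, against 1067 to 1903 with vehicle. Endothelial markers had 2 higher and 5 lower of 9 in MCAD-/-, and 5 higher and 1 lower in wild type. Of 7 hepatocyte markers, 4 were lower and 0 higher with LPS in each genotype, with sums of 74275 to 75345 units against 86400.2 to 91073 in MCAD-/- and 70328 to 75125 against 84657 to 88858 in wild type.

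B and plasma cells are rich in ER chaperones and Xbp1. Their 8 markers on the array were not tested, since 0 passed the filter, and they summed to between 41.9 and 59.1 units in all 4 groups. Of the other lists, 4 of 7 stellate cell markers were lower with LPS in MCAD-/-, and 2 were higher and 1 lower in wild type, while the 1 tested bile duct marker, Tff3, was lower with LPS in MCAD-/-. Tff3 passed as higher in MCAD-/- than in wild type with either injection. Its mean log2 levels in MCAD-/- were 4.56 with LPS and 6.79 with vehicle, while both wild type means lay under the floor. The part of neutrophils, Kupffer cells, endothelial and stellate cells in the LPS results of the 10 genes was not tested.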

How the data were processed

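Liver RNA of 20 mice was measured on Affymetrix arrays. The authors deposited intensity on a linear scale for 45101 probe sets, made with GCRMA per the submitters' processing notes (version and settings not given in the sources used here). GCRMA normalizes between arrays, so differences are relative to the whole array. No batch is given.

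Values were taken to log2. Of the probe sets, 64 controls were left out, 34945 carried 1 gene symbol in the platform annotation and 932 carried several and were not named. Each gene was represented by its brightest probe set and tested if above 16 units on at least 5 arrays. One model with the 4 groups was fitted with limma 3.58.1 in R 4.3.3, and every adjusted p is its two-sided Benjamini-Hochberg value over 8774 genes. The p-values measure the spread between mice of these groups, and 5 mice per group limit the precision. Same-numbered mice did not deviate together (r from -0.12 to 0.28, over 0.1 in 5 of 20 pairs), so numbers were not used as pairs. Simulated data took the real genes' wild type vehicle means and their spreads, with noise drawn for each gene on its own and 200 of 8774 genes changed. There, 2-fold changes were recovered for LPS in 88.1% (MCAD-/-) and 80.6% (wild type), for genotype in 82.1% (LPS) and 71.6% (vehicle), and for the interaction in 65.7% of cases. For 1.5-fold changes the shares were 47.8%, 53.7%, 53.7%, 58.2% and 28.4% in that order. Every real comparison had more genes past the threshold than were changed here, from 361 for the interaction upward. The unadjusted p needed to pass therefore differs, and these shares are not the power of the real tests.

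The 10 genes and the lists (7 of ER pathways, 7 of cell type markers) were chosen with earlier results of these data known. Of each list, the 3 members at most with the smallest adjusted p past the threshold in a comparison were named, with the 5 genes most like the mean profile, though marker genes are mostly given by counts. Alternatives were other filters, the mean or each of a gene's probe sets, 2 further normalizations, another prior, array weights, a replicate block, the compared groups alone, the arrays of high actin ratio left out and each mouse left out.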

Additional observations from a re-analysis of the deposited data

Results flagged for a closer look

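Of 44 groups of 5 mice checked over the 10 genes and Acadm, 5 held 1 mouse whose gap to the nearest other exceeded Dixon's 95% limit, where chance gives about 1 in 20. Wild type vehicle mouse 3 accounted for 3 of them. It read 5250 units for Hsp90b1, above the other 4 (the nearest at 4092), 2380 units for Calr, below them (nearest 3114), and 1600 units for Herpud1, below them (nearest 3097). Its array had the second highest log2 actin ratio, 3.18. MCAD-/- LPS mouse 3 had the lowest Hsp90b1 of its group at 5180 units (nearest 6437). Wild type LPS mouse 2 had the lowest Xbp1 of its group at 3860 units (nearest 4162), in a group whose other 4 mice lay between 4162 and 4282. What set these mice apart was not tested.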

How the results depend on the processing

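For LPS, the number of the 10 genes past the threshold stayed between 8 and 10 in MCAD-/- and between 7 and 8 in wild type. It stayed at 0 for genotype with LPS and for the interaction. These ranges cover the alternatives that hold each gene to 1 value and so leave out the single other probe sets. The stricter filter (64 units on at least 5 arrays) is among them, and under it Pdia4 and Sdf2l1 were not tested. For genotype with vehicle the number was 6 with array weights and 1 to 2 when each mouse was left out in turn, the 2 without MCAD-/- vehicle mouse 5. Over all tested genes, array weights gave 2855 genes for genotype with vehicle in place of 1422, and 879 for the interaction in place of 361, while the stricter filter (64 units) gave 236, with fewer genes tested. The lowest weights, 0.29 and 0.25, went to wild type LPS mouse 4 and wild type vehicle mouse 3. The numbers do not pair the mice. With the replicate block the counts among the 10 were 9 for LPS in MCAD-/-, 8 in wild type, 1 for genotype with vehicle, and 0 for genotype with LPS and the interaction, and over all tested genes 5796, 5619, 1397, 1845 and 384 in that order. The same-numbered mouse was the best correlate in 5 of 20 pairs. For the interaction, a fit of the compared groups alone is the same model and was not run apart.

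Of 18 called results of the 10 genes, 0 changed direction and 4 lost the call under some alternative, all through other probe sets or their mean. The Sdf2l1 calls were not assessed under the stricter filter. Hsp90b1 for LPS in wild type lost it with the mean of its probe sets too (0.42, adjusted p = 0.0918). Among 68 called results of other named genes, 13 lost the call somewhere, Cnpy2 (-0.30, adjusted p = 0.0600) and Sec11a (-0.29, adjusted p = 0.0640) with the replicate block among them. Leaving out single mice ended the genotype calls of Tram1 and Ern1 with vehicle and of Cnpy2, Sec11a, Eif2ak3, Ddit3 and Chac1 with LPS. The causes were not tested.

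The sign turned only for log2 differences that were not called. For Pdia4, LPS in wild type gave -0.11 with quantile normalization, -0.040 with array weights and -0.13 to 0.14 with 1 mouse left out. Leaving out 1 mouse gave Dnajb9 -0.12 to 0.14 for LPS in wild type. For genotype with vehicle, Hsp90b1 gave 0.069 with array weights, 0.065 without both arrays of high actin ratio and -0.038 to 0.065 with 1 mouse left out, and Herpud1 gave -0.021, -0.031 and -0.031 to 0.27. For genotype with LPS, Pdia4 gave 0.013 with array weights and -0.15 to 0.13 with 1 mouse left out, Herpud1 -0.023 without the actin arrays and -0.043 to 0.13, Sdf2l1 -0.44 to 0.12, and Xbp1 -0.042 to 0.045, with -0.012 on another probe set. For the interaction, Hspa5 gave -0.059 to 0.049, with 0.068 on another probe set, Herpud1 0.12 with array weights, 0.0074 without the actin arrays and -0.24 to 0.067, and Sdf2l1 -0.059 to 0.50. For Acadm the range with 1 mouse left out was -6.04 to -5.06 with LPS and -6.90 to -6.12 with vehicle. Dim probe sets limit Pdia4 and Sdf2l1.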
